A study of Mus musculus with 5 samples.

Results

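The genes described here encode the proteins of the cytosolic ribosome, the particle that translates nuclear-encoded mRNA. They were chosen by symbol, as every gene of the table named Rpl or Rps with a number (with or without an a, x, y or l and a further number) together with Rpsa, Rplp0, Rplp1 and Rplp2. The S6 kinase genes, whose symbols begin with Rps6k, were left out. This gave 84 of the 22609 genes in the table, 51 of the large subunit and 33 of the small subunit, paralogs included.

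RNA was sequenced from mammary glands of outbred mice on the day of birth, within 12 hours of delivery, in 3 Nfib-null and 2 wild-type libraries. Lymph nodes had been removed, and the labels name no further sorting of cells. Nfib encodes the transcription factor nuclear factor I/B, and the series asks how it works with STAT5 in the gland of pregnancy. Each group is represented by a single deposited column of RPKM, read counts scaled to gene length and sequencing depth, and values for Nfib-null and wild-type glands below are those of the columns. The column NfibFF-WC was taken as that of the Nfib-null group because the other column, Nfib-WT, carries the wild-type title. The labels do not spell out WC, and they do not say in which cells the gene was deleted. With a single mean per gene and group there was no spread between libraries, no test and no p-value, so every difference below is a description of size.

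Ribosomal proteins are made in near equal numbers because each ribosome holds a single copy of nearly all of them, the acidic stalk proteins Rplp1 and Rplp2 being the main exception. Their mRNAs begin with a run of pyrimidines, the terminal oligopyrimidine (TOP) element, through which mTORC1 and the RNA-binding protein Larp1 adjust their translation. In the lactating gland the ribosomes of the secretory cells translate the casein and whey protein mRNAs on the endoplasmic reticulum.

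Several facts of the series bear on all values below. The smallest steps between low values gave approximate depths of 27200000 and 32900000 reads in 2 Nfib-null libraries and of 14900000 and 17600000 reads in the wild-type pair. Only the 2 most populated steps of each column were kept, so the depth of the third Nfib-null library was not estimated. These steps held 52 and 33 of 1057 low-valued genes in the Nfib-null column and 54 and 53 of 853 in the wild-type column. The depths are rough and take each column as a plain mean over its libraries. Nfib itself stood at 55.3 RPKM in Nfib-null glands and 33.7 RPKM in wild-type glands, so the level of the targeted gene does not check how the columns were assigned. The 22 milk protein genes took up 30.9% of the summed RPKM in Nfib-null glands and 65.9% in wild-type glands. Of 8 adipocyte markers 7 exceeded a 2-fold difference toward Nfib-null after scaling (summed level 7581 against 1478 RPKM), as did 8 of 8 fibroblast markers (1671 against 448 RPKM), 7 of 8 macrophage markers (446 against 130 RPKM) and 3 of 8 epithelial markers (1757 against 760 RPKM). Of 8 lymphocyte markers 5 were at least 2-fold lower in Nfib-null glands (11.5 against 26.8 RPKM). No marker on these lists stood at 0. In whole tissue, fewer cells of a type and less RNA per cell cannot be told apart, and the part of these shifts in the ribosomal protein values was not tested.

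Ribosomal protein mRNA made up almost the same share of the non-milk mRNA in both columns. The 84 genes summed to 49618 RPKM in Nfib-null glands and 42852 RPKM in wild-type glands. Of all summed RPKM this was 9.05% in Nfib-null glands and 4.52% in wild-type glands, a ratio of 2.001. With the 22 milk protein genes removed from the denominator it was 13.1% in Nfib-null glands and 13.3% in wild-type glands, a ratio of 0.987. With only the caseins, Wap and Lalba removed the shares were 12.0% in Nfib-null glands and 9.21% in wild-type glands. The large subunit genes held 7.56% of the non-milk sum in Nfib-null glands and 7.74% in wild-type glands. The small subunit genes held 5.52% in Nfib-null glands and 5.51% in wild-type glands.

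**Figure D1:**
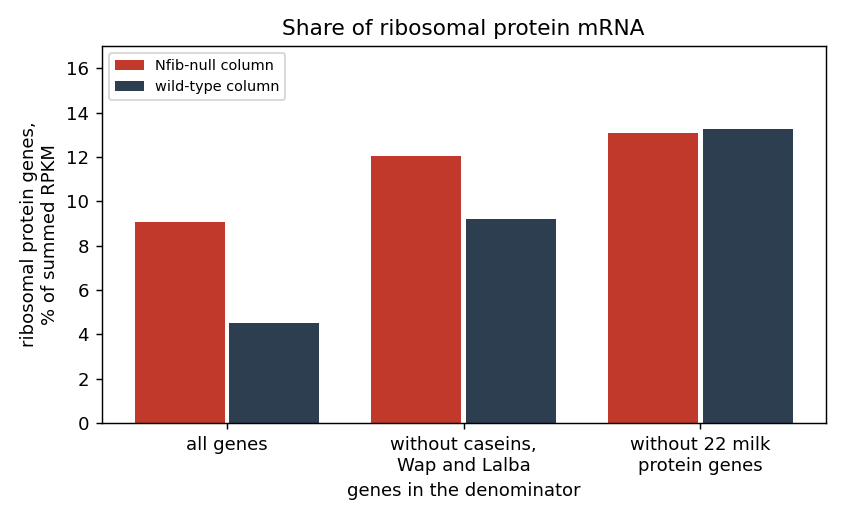
Percent of summed RPKM (vertical axis) held by the 84 ribosomal protein genes in Nfib-null glands (red, left bar) and wild-type glands (dark, right bar), for 3 choices of the genes in the denominator. The bars differ 2.001-fold with all genes counted and stand at 13.1% and 13.3% without the 22 milk protein genes. Each bar is a single group value with no error.

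Most members were among the more abundant transcripts of the gland, and their order was nearly the same in both columns. A mean of 100 RPKM or more over the 5 libraries was reached by 70 of the 84. Within these, the median level of the 41 large subunit genes was 632 RPKM in Nfib-null glands and 558 RPKM in wild-type glands. The median of the 29 small subunit genes was 704 RPKM in Nfib-null glands and 603 RPKM in wild-type glands. Spearman's rho between the columns was 0.96 over these 70 genes, which share libraries and gene lengths.

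The highest member was Rpl41, which encodes a very short basic peptide, at 1918 RPKM in Nfib-null glands and 1968 RPKM in wild-type glands. Rps12 followed at 1722 RPKM in Nfib-null glands and 1227 RPKM in wild-type glands. Next was Rplp1, an acidic protein of the stalk that recruits the translation factors, at 1337 RPKM in Nfib-null glands and 1024 RPKM in wild-type glands. Of these genes Rps12 and Rplp1 were thus higher as deposited, and Rpl41 was not. Rpl23a, a protein of the rim of the peptide exit tunnel, stood at 1186 RPKM in Nfib-null glands and 949 RPKM in wild-type glands. Rpl10, which joins the large subunit late in its assembly, stood at 1049 RPKM in Nfib-null glands and 988 RPKM in wild-type glands. The 6 most abundant members, these and Rplp0, together held 16.7% of the ribosomal protein sum in Nfib-null glands and 16.4% in wild-type glands.

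**Figure D2:**
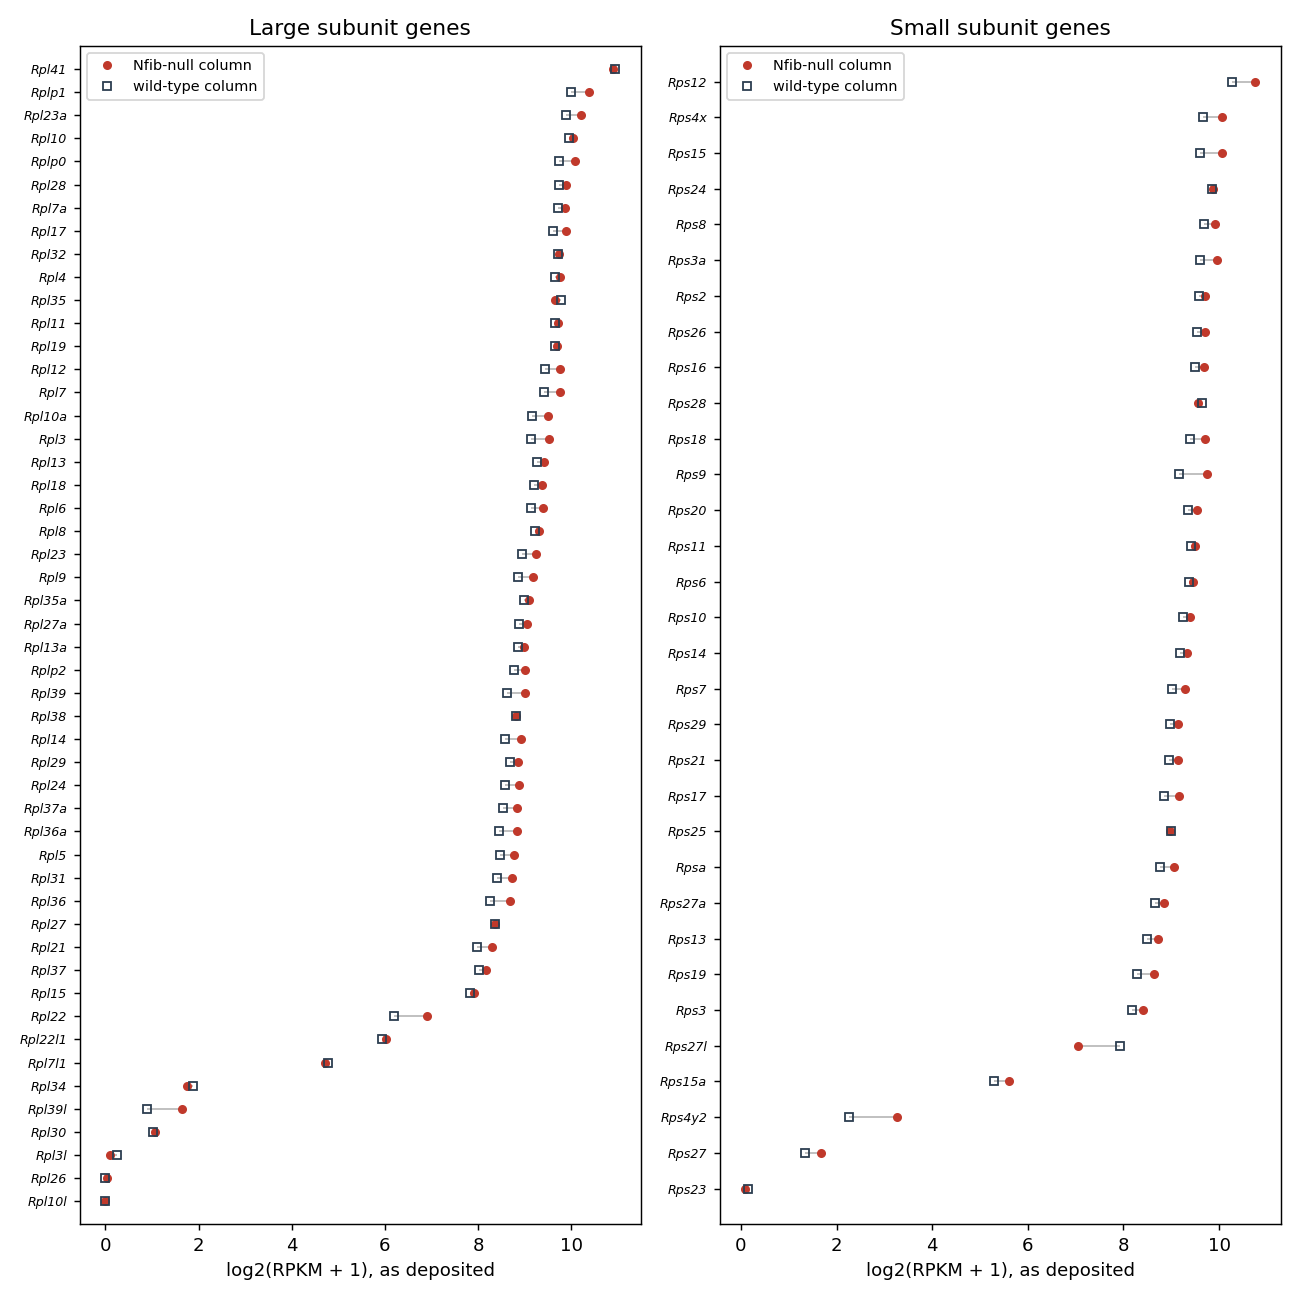
Level of 82 of the 84 genes as log2(RPKM + 1), as deposited (horizontal axis), in Nfib-null glands (filled red circles) and wild-type glands (open squares), ordered by mean level within each subunit. Those at 100 RPKM or more mostly have the Nfib-null symbol slightly to the right (the side turns for most after scaling), Rps27l lies the other way, and a tail of 9 genes lies below 10 RPKM.

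Differences between the columns depended in sign on the scaling. A total of 79 members had a mean of at least 1 RPKM, the minimum set for all genes, and 5 did not, among them the core genes Rps23 and Rpl26 and the paralogs Rpl3l and Rpl10l. As deposited, the Nfib-null value exceeded the wild-type value for 71 of the 79. The median ratio over all 79 was 1.17, whereas the median ratio of all 12511 genes above the minimum was 1.33. Median-ratio scaling sets this common shift to 0, and the log2 differences below are Nfib-null minus wild type of log2(scaled RPKM + 1). On that scale the median over the 79 members was -0.17, beside 0 for all genes, and it lay at percentile 37.2 of all genes. With quantile normalization it lay above the median of all genes, at percentile 54.8. The median of members at 100 RPKM or more was -0.20, and that of the other genes at this level was -0.23. The median was 0.22 with values as deposited, 0.057 with quantile normalization, -0.0057 with equal sums of non-milk RPKM and -0.68 with scaling to 16 epithelial genes.

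The members differed from each other far less than other abundant genes did. Among members at 100 RPKM or more, the middle 50% of log2 differences ran from -0.29 to -0.09. For the other 464 genes at that level it ran from -0.80 to 0.35. Only 1 of the 79 members, Rps27l, was at least 2-fold lower and 0 were at least 2-fold higher, beside 5.97% of all genes lower and 6.95% higher. Of the other abundant genes 33.6% were beyond 2-fold. Without Rps27l, the 69 remaining members at 100 RPKM or more lay between -0.54 and 0.18.

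Both subunits gave similar values. The median log2 difference was -0.17 for 47 large subunit genes and -0.18 for 32 small subunit genes, and the middle 50% of the large subunit genes (-0.32 to -0.08) and of the small subunit genes (-0.27 to -0.08) overlapped. In the stalk, Rplp0, the scaffold protein, stood at 1076 RPKM in Nfib-null glands and 853 RPKM in wild-type glands (log2 -0.08). Rplp2, the partner of Rplp1, stood at 517 RPKM in Nfib-null glands and 436 RPKM in wild-type glands (-0.17), and Rplp1 differed by -0.03. Rpsa, a small subunit protein also known as a laminin receptor, stood at 528 RPKM in Nfib-null glands and 431 RPKM in wild-type glands (-0.12). The stalk genes and Rpsa were thus all higher as deposited and all slightly lower after scaling.

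At the low end after Rps27l was Rpl35, at the exit tunnel, with 809 RPKM in Nfib-null glands and 885 RPKM in wild-type glands (log2 -0.54). Rps28 stood at 755 RPKM in Nfib-null glands and 793 RPKM in wild-type glands (-0.48). Rpl7l1, a paralog of Rpl7 that acts in large subunit assembly in human cells, stood at 25.2 RPKM in Nfib-null glands and 26.4 RPKM in wild-type glands (-0.46). These genes, with Rpl41 (-0.45), Rpl34 (-0.43), Rps25 (-0.43) and Rpl27 (-0.42), were the 8 lowest members, and the deposited values of all 8 were also below wild type. Rps25 stood at 505 RPKM in Nfib-null glands and 510 RPKM in wild-type glands, and Rpl27 at 326 RPKM in Nfib-null glands and 328 RPKM in wild-type glands, so that both were nearly equal before scaling.

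At the high end were Rps4y2 (log2 0.65), Rpl39l (0.51), Rpl22 (0.30), Rps9 (0.18), Rps12 (0.08), Rps27 (0.06), Rps15 (0.05) and Rpl36 (0.002). Rps4y2, which RefSeq lists as a synonym of the transcribed pseudogene Rps4l, stood at 8.66 RPKM in Nfib-null glands and 3.82 RPKM in wild-type glands. On the log2(RPKM + 1) scale it was the single member at least 2-fold higher with values as deposited (1.00), beside 14.4% of all genes higher and 2.95% lower. Without the added 1, the deposited values of Rps4y2 were 2.26-fold and those of Rpl39l 2.45-fold higher. Rps9, a protein of the decoding side of the small subunit, stood at 863 RPKM in Nfib-null glands and 572 RPKM in wild-type glands. Rps15 stood at 1067 RPKM in Nfib-null glands and 775 RPKM in wild-type glands. Rpl36 stood at 409 RPKM in Nfib-null glands and 307 RPKM in wild-type glands. The largest positive differences were thus at low levels.

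The paralogs showed the widest range. Rps27l encodes a near copy of Rps27 that p53 induces in human cells. Its values were 131 RPKM in Nfib-null glands and 241 RPKM in wild-type glands. The log2 difference was -1.28, and with values as deposited it was -0.87, within 2-fold. Its parent Rps27 was listed at 2.18 RPKM in Nfib-null glands and 1.54 RPKM in wild-type glands, so the ratio of the pair rests on a near-zero value. Rpl36al has a symbol outside the rule and encodes a near copy of the X-linked Rpl36a. It was lower as well, at 294 RPKM in Nfib-null glands and 448 RPKM in wild-type glands (-1.02 after scaling and -0.61 as deposited). Rpl36a stood at 459 RPKM in Nfib-null glands and 351 RPKM in wild-type glands (-0.03). Rpl36al was thus at 64.1% of the level of Rpl36a in Nfib-null glands and at 128% in wild-type glands, while their sum was 753 RPKM in Nfib-null glands and 799 RPKM in wild-type glands.

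The first 90 coding bases of these pairs are shown because only reads that cover a base at which they differ can separate paralog from parent. Capitals mark those bases, and the sequences are from GENCODE transcripts of GRCm38, each read 5′ to 3′. Over the whole coding sequence Rps27l and Rps27 differ at 60 of 252 bases, and Rpl36al and Rpl36a at 39 of 318 bases. The longest stretch without a difference is 11 bases in the first pair and 24 bases in the second. Of 50-base coding windows, 100% in Rpl36al, Rpl36a and Rps27 and 48.3% in Rps27l also occur exactly in a transcript of another annotated gene. The differences within a pair therefore do not show that its reads could be told from those of other genes.
Rps27l (gene at chr9:66946086-66949516, plus strand): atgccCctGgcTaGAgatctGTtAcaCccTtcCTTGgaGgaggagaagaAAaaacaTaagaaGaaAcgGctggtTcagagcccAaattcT
Rps27 (gene at chr3:90212522-90213651, minus strand): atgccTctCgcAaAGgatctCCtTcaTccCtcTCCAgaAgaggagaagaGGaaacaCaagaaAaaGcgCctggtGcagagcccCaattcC
Rpl36al (gene at chr12:69182731-69184083, minus strand): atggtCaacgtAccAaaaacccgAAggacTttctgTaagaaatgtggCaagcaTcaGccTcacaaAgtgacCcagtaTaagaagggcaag
Rpl36a (gene at chrX:134585654-134588062, plus strand): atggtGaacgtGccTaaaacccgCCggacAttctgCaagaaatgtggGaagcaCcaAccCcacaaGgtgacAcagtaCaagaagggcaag

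A further expressed pair was Rpl22, an RNA-binding protein needed for T cell development in mice, and Rpl22l1, whose mRNA Rpl22 represses in mice. Rpl22 stood at 118 RPKM in Nfib-null glands and 72.2 RPKM in wild-type glands. Rpl22l1 stood at 64.2 RPKM in Nfib-null glands and 60.7 RPKM in wild-type glands (log2 -0.32). Rpl22l1 was thus at 54.3% of the level of Rpl22 in Nfib-null glands and at 84.0% in wild-type glands. Rpl7l1 was at 2.89% of the level of Rpl7 in Nfib-null glands and at 3.88% in wild-type glands.

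The tissue-restricted paralogs were listed at low values, as some genes that every cell uses also were in this table (Rps23, Rpl26 and Tpt1, described further on), so a low value does not show that a paralog was absent. Rpl10l, an autosomal copy of Rpl10 used in the testis, was listed at 0 in both columns. Rpl3l, which replaces Rpl3 in striated muscle, stood at 0.067 RPKM in Nfib-null glands and 0.187 RPKM in wild-type glands, whereas Rpl3 stood at 730 RPKM in Nfib-null glands and 561 RPKM in wild-type glands. Rpl39l, a testis-enriched copy of Rpl39, stood at 2.13 RPKM in Nfib-null glands and 0.871 RPKM in wild-type glands, against 517 RPKM (Nfib-null) and 393 RPKM (wild type) for Rpl39. Rps4y2, the synonym of a pseudogene named above, was also low and is not counted as tissue-restricted. It was at 0.808% of the level of the X-linked Rps4x in Nfib-null glands and at 0.474% in wild-type glands. A gene of 1 kb at 1 RPKM corresponds to about 32.5 reads over the wild-type libraries, so the values of Rpl3l and Rpl39l rest on few reads.

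**Figure D3:**
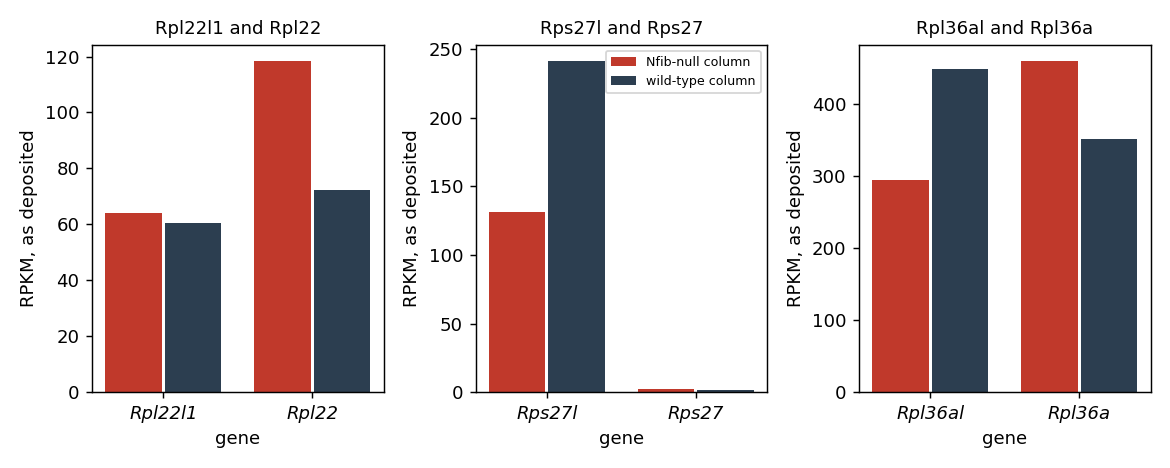
Level in RPKM, as deposited (vertical axis from 0), of 3 paralogs and their parents in Nfib-null glands (red, left bar) and wild-type glands (dark, right bar). Rps27l and Rpl36al are lower in Nfib-null glands, Rpl22 is higher, Rpl36a is higher as deposited but not after scaling (-0.03), and Rps27 is near 0 in both. Each bar is a single group value with no error.

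A set of 6 core members, genes not named as paralogs, stood near 0 in both columns. Rpl34 was listed at 2.38 RPKM in Nfib-null glands and 2.70 RPKM in wild-type glands. Rpl30 was listed at 1.08 RPKM in Nfib-null glands and 1.02 RPKM in wild-type glands. Rps23 and Rpl26 were listed at 0.066 and 0.018 RPKM in Nfib-null glands and at 0.102 and 0 RPKM in wild-type glands, and Rps27 was also among the 6. They add almost nothing to the sums and shares above. The log2 differences given for Rpl34 and Rps27 rest on about 30.9 and 12.6 reads over the coding length in wild-type glands. Rps15a was also low, at 47.6 RPKM in Nfib-null glands and 38.4 RPKM in wild-type glands.

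Ribosomal protein genes have many processed pseudogenes, and how reads that match several places were counted is not given in the sources used here. In the coding sequences of GENCODE, 83 of the 84 members were found. The share of 50-base windows that also occur exactly in a transcript of another annotated gene had a median of 88.1% (72.2% to 100%) in the 6 near-zero members and 93.3% (0% to 100%) in the 70 members at 100 RPKM or more. The number of pseudogenes that share a window was 6 to 16 in the near-zero members and 0 to 119 in the abundant members. The ranges of both measures overlapped, and the part of shared sequence in the near-zero values was not tested. In the 25 ribosome assembly genes the median share was 0%. Among the abundant members, Rps3 (8.09%) and Rpl8 (8.73%) had coding sequences with few shared windows. Rps3 stood at 338 RPKM in Nfib-null glands and 287 RPKM in wild-type glands (-0.17), and Rpl8 at 632 RPKM in Nfib-null glands and 597 RPKM in wild-type glands (-0.33). These members lay within the range of the rest.

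Some wild-type values were tied exactly with another gene. Rpl4 and Rpl19 both held 802 RPKM in wild-type glands, and 869 and 826 RPKM in Nfib-null glands. Rps14 shared its wild-type value of 583 RPKM with P4hb, an endoplasmic reticulum folding enzyme, and stood at 644 RPKM in Nfib-null glands. How the ties arose was not tested. The median over members without them was -0.17.

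Runs of pyrimidines were looked for around the annotated start sites. In the window from 30 bases before to 20 bases after the RefSeq start (GRCm38.p6), a run of at least 8 bases made up only of C and T on the gene's strand occurred in 47.6% of the 63 members with an entry. It occurred in 19.1% of 8792 other genes above the minimum. Members at 100 RPKM or more with such a run (25) had a median log2 difference of -0.25, and those without it (27) of -0.15. A run anywhere in the window was counted, also one wholly before the start. The split therefore does not separate mRNAs with a TOP element from those without it. In the window of Rpl41 (chr10:128549149-128549198, minus strand), the most abundant member, the longest such run was 4 bases. The 5′ ends that GENCODE gives for Rpl41 (chr10:128549305), Rps12 (chr10:23787275) and Rpl22l1 (chr3:28805436) lie outside their windows. That of Rpl22 (chr4:152325742) lies among the last bases of its window. Runs at the ends outside the windows were not looked for. The longest run was 5 bases in Rpl22, Rpl36al and Rpl36a. The windows of the most abundant small subunit gene and of the pairs Rps27l and Rps27 and Rpl22l1 and Rpl22 are shown, with the longest such run in capitals and the annotated start after base 30. In Rps27l a second run of the same length follows the marked one, and both lie before the annotated start.
Rps12 (chr10:23787190-23787239, minus strand): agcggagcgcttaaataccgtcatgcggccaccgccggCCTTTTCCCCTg
Rps27 (chr3:90213629-90213678, minus strand): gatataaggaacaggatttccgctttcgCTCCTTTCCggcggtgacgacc
Rps27l (chr9:66946056-66946105, plus strand): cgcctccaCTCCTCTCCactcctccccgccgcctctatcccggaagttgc
Rpl22l1 (chr3:28805478-28805527, plus strand): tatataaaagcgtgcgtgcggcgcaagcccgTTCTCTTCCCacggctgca
Rpl22 (chr4:152325696-152325745, plus strand): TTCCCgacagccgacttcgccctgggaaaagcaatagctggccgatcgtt

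Apart from Rpl36al, members that the symbol rule misses differed by less than 2-fold. Rps27a, a member by symbol that encodes ubiquitin fused to a small subunit protein, stood at 459 RPKM in Nfib-null glands and 406 RPKM in wild-type glands (-0.24). Fau, a fusion of a ubiquitin-like protein with a small subunit protein, stood at 394 RPKM in Nfib-null glands and 316 RPKM in wild-type glands (-0.09). Gnb2l1, the ribosomal scaffold also called Rack1, stood at 612 RPKM in Nfib-null glands and 538 RPKM in wild-type glands (-0.23). With the 4 genes that the rule misses added, the share of the non-milk sum was 13.8% in Nfib-null glands and 14.1% in wild-type glands.

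Genes that make ribosomes or steer their translation were set beside the members. Of 25 ribosome assembly genes, 22 lay below 0, 3 of them by 2-fold or more, 0 were 2-fold higher, and the median was -0.45, beside -0.17 for the members and 0 for all genes. Of all genes 5.97% were 2-fold lower and 6.95% were 2-fold higher. Over the other scalings the count lower ran from 0 as deposited (median -0.07) to 11 with scaling to epithelial genes (median -0.95), while the count over all genes ran from 369 to 2005. The 2-fold lower genes were Bop1, of pre-rRNA processing, at 18.7 RPKM in Nfib-null glands and 31.8 RPKM in wild-type glands (-1.13), Bysl, of small subunit assembly (-1.03), and the nucleolar chaperone Nolc1 (-1.01). At the other end were nucleolin, Ncl (0.10), and Rrp1 (0.05).

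Of 15 other TOP mRNAs above the minimum, 0 were beyond 2-fold and the median was 0.07. As 5.97% of all genes were 2-fold lower and 6.95% higher, 0 in so short a list says little. Pabpc1, the cytoplasmic poly(A)-binding protein, stood at 487 RPKM in Nfib-null glands and 255 RPKM in wild-type glands (0.52), and the histone chaperone Nap1l1 differed by 0.50. The elongation factor subunits Eef1g (-0.32) and Eef1b2 (-0.27) were at the other end. A further TOP mRNA, Tpt1, was listed near 0 in both columns (0.056 RPKM in Nfib-null glands and 0.075 RPKM in wild-type glands).

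Of 13 genes of RNA polymerase I above the minimum, 0 were beyond 2-fold (median -0.09). Of all genes 5.97% were 2-fold lower and 6.95% higher, so 0 in so short a list says little. The ends were Polr1e (-0.64) and the initiation factor Rrn3 (-0.61), and the upstream binding factor Ubtf (0.24) and Taf1b (0.11). Of 17 genes of mTORC1 and its regulators, 3 were 2-fold lower or more, beside 5.97% of all genes, 0 were 2-fold higher, beside 6.95%, and the median was -0.27. Larp4, an RNA-binding protein that stabilises mRNA, stood at 14.6 RPKM in Nfib-null glands and 33.5 RPKM in wild-type glands (-1.54). The kinase Akt1 stood at 101 RPKM in Nfib-null glands and 194 RPKM in wild-type glands (-1.34), and Rheb, the GTPase that activates mTORC1, at 48.0 RPKM in Nfib-null glands and 77.7 RPKM in wild-type glands (-1.09). Eif4ebp1 (0.52) and Myc (0.48) were at the other end, and over the other scalings the count 2-fold lower ran from 1 as deposited to 6 with scaling to epithelial genes, as that over all genes ran from 369 to 2005.

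**Figure D4:**
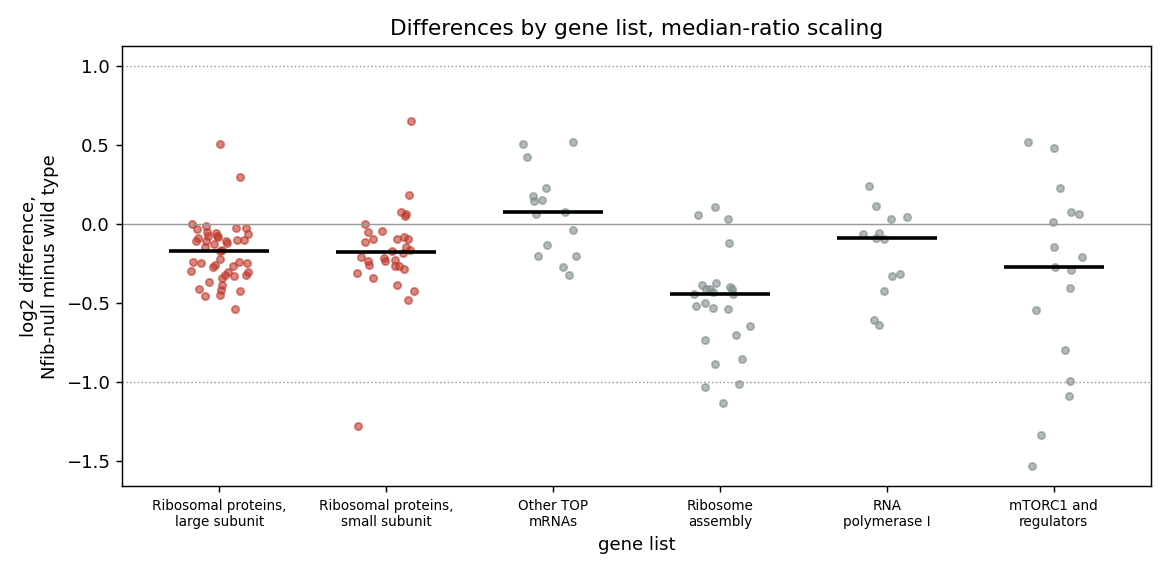
Log2 difference, Nfib-null minus wild type, after median-ratio scaling (vertical axis) for ribosomal protein genes by subunit (red) and for 4 lists beside them (grey), 1 point per gene above 1 RPKM, with the median as a black bar and 2-fold as dotted lines. Most ribosomal protein genes lie close together, with Rps27l below and the low-level Rps4y2 (0.65) and Rpl39l (0.51) above. The ribosome assembly list has the lowest median (-0.45). The signs turn for most members with values as deposited.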

How the data were processed

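Poly(A) RNA of 5 libraries was sequenced. Per the submitters' processing notes, CASAVA and TopHat were used with the mm9 build. How reads were counted, with which annotation and whether by strand, is not given in the sources used here, so reads of overlapping antisense genes cannot be told apart. The values are RPKM deposited by the authors, per the file headers, with 1 column per group and no value per library. The minimum was a mean of 1 RPKM, weighted by 3 and 2 libraries, which 12511 genes passed. Columns were scaled by median ratios, and differences taken on log2(RPKM + 1), a scale that understates changes of low genes. At least 2-fold was called higher or lower. The scaling was tested on simulated data with a common shift and equal numbers of genes raised and lowered. That setting lacks the milk protein difference between these columns, so it does not show which scaling suits them. Depth was estimated from low values and GENCODE transcript lengths.

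Shares were computed as deposited. Coding sequences and window counts came from GENCODE (GRCm38) and promoters from RefSeq (GRCm38.p6). Named genes are the 6 members of highest mean, the 8 at each end, members beyond 2-fold, paralogs with parents, stalk genes, Rpsa and tied members, and from other lists the 2 farthest from 0 each way. Rps3, Rpl8 and the near-zero members were named after their values were seen. Members and lists were chosen with earlier results of these data known. Planned limma fits need values per library and were not run. Python 3.11.15, pandas 2.3.3, NumPy 2.4.6 and SciPy 1.17.1 were used. Some genes enter the counts, sums and medians but are not reported here by name.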

Additional observations from a re-analysis of the deposited data

How the results depend on the processing

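The median over members and the medians of the large and small subunits moved by over 0.1 with each other scaling of the columns. They were 0.22, 0.19 and 0.23 with values as deposited, 0.057, 0.057 and 0.056 with quantile normalization, -0.014, -0.052 and -0.0082 with sums equalised after leaving out the 20 highest genes, -0.0057, -0.043 and 0.0002 with equal sums without the milk protein genes, and -0.68, -0.68 and -0.69 with scaling to 16 epithelial genes. The median of all genes moved with them, to 0.35, -0.0072, 0.15, 0.15 and -0.44. A pseudocount of 0.1 or 5, leaving out the filter, or a minimum of 5 RPKM left the medians within 0.1. The count of members 2-fold lower was 0 as deposited and 2 with scaling to epithelial genes (Rps27l and Rpl35, -1.05). The count 2-fold higher was 1 as deposited. At a limit of 1.5-fold, 1 member was higher and 1 lower, beside 2145 higher and 1833 lower of all 12511 genes. At a limit of 4-fold, 0 members were higher and 0 lower, beside 91 higher and 154 lower of all genes. The ratio of shares was 2.001 with all genes in the denominator and 1.30 without only the caseins, Wap and Lalba, and otherwise 0.979 to 1.00, the last without adipocyte markers, an alternative chosen after seeing the data, as was the median over members at 100 RPKM or more (-0.20). No paired analysis was possible because the columns hold group means without replicate numbers, and no library could be left out for the same reason. All genes split into 869 higher and 747 lower after median-ratio scaling, 1800 and 369 as deposited, 1190 and 541 with equal non-milk sums, and 329 and 2005 with scaling to epithelial genes. A difference between group means with no replicate values cannot be set against animal-to-animal spread.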

Other observations

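Differences among the 70 members at 100 RPKM or more had little relation to simple properties of the genes. Spearman's rho of the log2 difference was -0.02 with the mean level, 0.17 with coding length, -0.05 with the GC content of the coding sequence and -0.09 with the share of windows found in other genes. The points share libraries and scaling, and the values are descriptions. The 9 members with a coding sequence of up to 300 bases had a median log2 difference of -0.26, and the 22 members with one of over 600 bases had a median of -0.16.

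Some copies of the near-zero members were also listed near 0. Rps27l, the near copy of Rps27, was not (131 RPKM in Nfib-null glands and 241 RPKM in wild-type glands). Gm9846, which RefSeq lists as Rps27rt and as sharing the older symbol Rps27, was listed at 0 in both columns, as was the pseudogene Gm15450 of Rps23. Rpl34-ps1 was listed at 0.024 RPKM in Nfib-null glands and 0.140 RPKM in wild-type glands.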
